A study of Mesocricetus auratus with 11 samples.

Results

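In Syrian hamster cells, 6866 CpGs of medium density were methylated in primary fetal cells and form the subject here. Density was counted as the number of CpGs listed in any of the 11 libraries within 250 bp on each side, the CpG itself included. The chosen CpGs had a density of 10 to 19, at least 10 reads in all 11 libraries, and a pooled level of 20% or more in primary replicates 1 and 2. They were 8.45% of the 81297 CpGs read at least 10 times in every library, and 47.7% of the 14398 such CpGs of medium density. Because primary replicates 1 and 2 chose the CpGs, they are given below as a description only, and primary replicates 3 and 4 stand for the primary cells in every comparison.

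The assay was reduced representation bisulfite sequencing, which reads the ends of DNA fragments cut at a CpG-containing motif after bisulfite has turned unmethylated cytosine into a base read as T. The 3 libraries of the exposed group came from wells of MT2 cells kept for 48 h in 5 µM 5-aza-2'-deoxycytidine (5aCdR), and their protocol names 4 exposed plates, of which 3 were analysed here. The 4 vehicle libraries came from MT2 wells kept for 48 h in 0.05% DMSO. MT2 is a female line grown from a morphologically transformed colony induced by benzo[a]pyrene at 5 µg/mL; it bypassed senescence and was at about passage 28. All MT2 wells were seeded from 1 thawed stock, so they are technical replicates of 1 line, and p-values between them measure the spread between wells. The 4 primary libraries came from untreated cells of 4 different female fetuses taken on gestation day 13.5, after less than 3 days and a single passage in culture. Heads, viscera and limbs had been removed, and the cells were a mixture of ectodermal and mesodermal cells at several stages of differentiation. MT2 is thus a colony-derived line set against mixed cells, and transformation, cell type, time in culture and the vehicle cannot be told apart in that comparison.

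In mammalian genomes most CpGs lie sparsely and are methylated, while the dense clusters known as CpG islands are mostly unmethylated. Medium density is the range between them, found at island edges and in weaker islands, where a CpG may be either methylated or not. The density used here counts only CpGs listed in the libraries, so the density in the genome can be higher. After DNA replication the methyltransferase DNMT1 copies the mark onto the new strand. 5aCdR is built into replicating DNA and traps DNA methyltransferases there, so that the mark is diluted as cells divide.

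The chosen CpGs lay on 385 scaffolds, at a median density of 12. Joined wherever neighbours were at most 250 bp apart, they made 3882 runs, of which 2363 held 1 CpG and 172 held 5 or more, with 1106 CpGs in these. The longest run held 18 CpGs between positions 4256 and 4667 of scaffold KB708427.1, where the mean level was 56.3% after 5aCdR, 62.6% in vehicle wells and 71.8% in primary replicates 3 and 4. They stood apart in position from the other CpGs of medium density. A CpG of density 20 or more lay within 1000 bp of 17.3% of them, against 62.2% of the 7532 medium-density CpGs under 20% in primary replicates 1 and 2, and 2.59% of the 37711 CpGs of density 1 to 9 at 20% or more. The median distance to such a dense CpG, where the scaffold had one, was 17847.5 bp for the chosen CpGs, 345 bp for the medium-density CpGs under 20% and 46767 bp for the sparse methylated CpGs.

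The libraries held 17834610 to 46148127 reads over CpG positions, and the median depth of a chosen CpG was 32 to 76 reads per library. The 2 shallowest libraries were vehicle replicates 2 and 3, and 5aCdR libraries had more reads on average than vehicle ones. A level rests on few molecules where reads are copies, so the level of a single CpG is imprecise. Across the chosen CpGs, Pearson's r between the levels of vehicle wells was 0.564 to 0.659, and it was 0.810 to 0.885 at the 568 CpGs read 50 times or more in all 11 libraries; these correlations are over CpGs that share reads and fragments. At the 139 chosen CpGs with both strands listed, the forward and reverse reads of a library correlated at 0.0727 to 0.290. CpGs of the mitochondrial sequence, read with the others, had an apparent methylation of 2.44% ± 0.167 (n = 3, SD) of reads in 5aCdR wells, 3.08% ± 0.455 (n = 4, SD) in vehicle wells and 4.72% ± 0.359 (n = 2, SD) in primary replicates 3 and 4. This apparent level moved in the same direction as the mean levels below, and its part in them was not tested.

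The first comparison asked what 5aCdR did to these CpGs in MT2 cells. Their methylation fell, with every 5aCdR well below every vehicle well, and it did so in each class of starting level, density and distance to dense CpGs. The mean level of the 6866 CpGs was 54.1%, 53.2% and 53.4% in the 3 5aCdR libraries, against 61.4%, 61.7%, 61.7% and 61.4% in the 4 vehicle libraries. The groups did not overlap, and wells of a group lay within 1 percentage point of each other. The means were 53.6% ± 0.453 (n = 3, SD) in 5aCdR wells and 61.5% ± 0.170 (n = 4, SD) in vehicle wells, a difference of -7.97 percentage points and a relative change of -12.9%. By an exact two-sided permutation test p was 0.0286, the lowest that 35 splits of the wells can give. Over all 81297 common CpGs the difference was -4.93 percentage points and the relative change -12.9%. The median over the chosen CpGs moved further than the mean, to 54.6% after 5aCdR, against 69.8% in vehicle wells (exact two-sided permutation test, p = 0.0286).

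**Figure D1:**
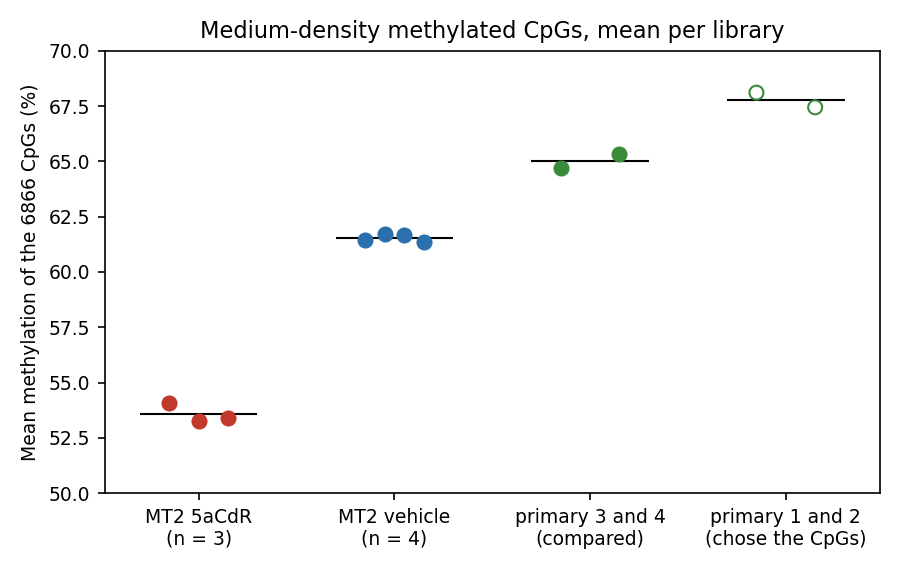
Mean methylation of the 6866 medium-density CpGs in each library, in percent on an axis that starts at 50%; points are libraries and lines are group means. The 3 5aCdR wells lie between 53.2% and 54.1%, the 4 vehicle wells between 61.4% and 61.7%, primary replicates 3 and 4 at 64.7% and 65.3%, and primary replicates 1 and 2, which chose the CpGs, at 68.1% and 67.4%.

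Fewer of the chosen CpGs were highly methylated and more were intermediate in 5aCdR wells. The share of the chosen CpGs at 80% or more was 27.7% ± 0.642 (n = 3, SD) in 5aCdR wells and 43.5% ± 3.35 (n = 4, SD) in vehicle wells. The share between 20 and 80% was 51.5% ± 1.27 (n = 3, SD) in 5aCdR wells and 35.9% ± 5.999 (n = 4, SD) in vehicle wells, and in both classes no library of a group overlapped the other group (exact two-sided permutation test, p = 0.0286 in each). The share below 20% was 20.8% ± 0.824 (n = 3, SD) and 20.7% ± 2.65 (n = 4, SD), a difference of 0.113 percentage points (exact two-sided permutation test, p = 0.886). These shares move with depth: 31.7% and 29.8% of CpGs were intermediate in the shallower vehicle replicates 2 and 3, against 41.8% and 40.2% in the deeper vehicle replicates 1 and 4. At similar depth, 5aCdR replicate 2, with 36110136 reads, had 50.1% intermediate CpGs, and vehicle replicate 1, with 37595680 reads, had 41.8%. The shares below 20% in these 2 libraries were 21.6% and 18.0%, beside 22.5% and 23.3% in the shallower vehicle replicates 2 and 3. By the mean level over libraries, 2563 CpGs were at 80% or more in vehicle wells. Of these, 53.7% stayed there after 5aCdR, 46.1% were between 20 and 80%, and 4 were below 20%. Of the 942 below 20% in vehicle wells, 23.7% were between 20 and 80% after 5aCdR. All 4 vehicle libraries were at 80% or more at 1549 CpGs. Of these, 564 were so in all 3 5aCdR libraries too, and at 6 every 5aCdR library was below 50%. These classes were set by the compared vehicle levels, so imprecise single levels alone can move CpGs out of them. That part was not tested.

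**Figure D2:**
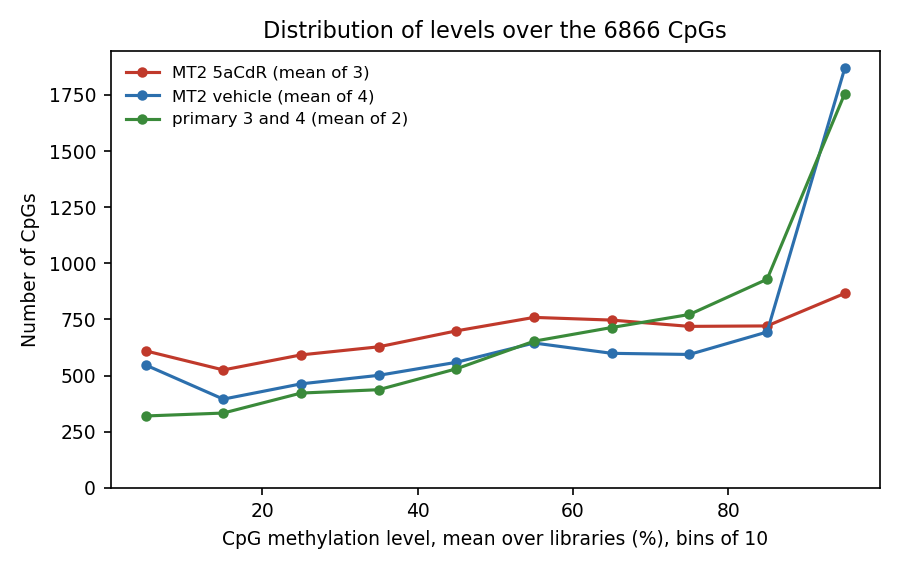
Number of the 6866 CpGs in each bin of 10 percentage points of methylation level, averaged over the 3 5aCdR, the 4 vehicle and the 2 compared primary libraries. The bin from 90 to 100% holds 866 CpGs after 5aCdR, 1869 in vehicle wells and 1756 in primary replicates 3 and 4, while each 5aCdR bin from 10 to 70% holds more CpGs than the vehicle bin.

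Reads of the same CpG disagreed more often after 5aCdR. Read discordance, the chance that 2 reads drawn from a CpG of a library differ in methylation, averaged 28.1%, 26.7% and 27.8% in the 5aCdR libraries, against 22.5%, 17.3%, 16.3% and 21.7% in the vehicle libraries. Each 5aCdR library lay above each vehicle library, a difference of 8.10 percentage points (exact two-sided permutation test, p = 0.0286). Discordance was computed from the level and read count of each CpG alone. It therefore restates the shift to intermediate levels and is no separate finding. The 2 lowest values are those of the shallow vehicle libraries, and primary replicates 3 and 4 had 22.4% and 25.1%. At similar depth, the gap between 5aCdR replicate 2 and vehicle replicate 1 was that between 26.7% and 22.5%.

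The fall was present at every starting level. Among the 2629 CpGs at 80% or more in primary replicates 1 and 2, the 5aCdR libraries were at 70.7%, 69.3% and 69.99%, against 79.0%, 79.2%, 78.6% and 78.9% in the vehicle libraries. The difference was -8.95 percentage points, or -11.3% of the vehicle level. The 2153 CpGs at 50 to 80% averaged 51.5% ± 0.404 (n = 3, SD) in 5aCdR wells and 59.7% ± 0.757 (n = 4, SD) in vehicle wells, a relative change of -13.7%. The 2084 CpGs at 20 to 50% averaged 35.03% ± 0.393 (n = 3, SD) and 41.5% ± 0.607 (n = 4, SD), a relative change of -15.6%. No library of 1 group overlapped the other in any of the 3 classes (exact two-sided permutation test, p = 0.0286 in each, and the same after adjustment over the classes). In percentage points the difference was larger at high starting levels, and as a share of the vehicle level it was smaller there; the difference between classes was not tested.

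No difference in the 5aCdR response with distance from dense CpGs was detected. The 1186 CpGs within 1000 bp of a CpG of density 20 or more averaged 49.7% ± 0.964 (n = 3, SD) in 5aCdR wells and 57.5% ± 0.186 (n = 4, SD) in vehicle wells. The 5680 farther CpGs, including the 330 on scaffolds without a dense CpG, averaged 54.4% ± 0.358 (n = 3, SD) and 62.4% ± 0.208 (n = 4, SD). The differences were -7.82 and -8.00 percentage points, and they differed from each other by 0.176 percentage points (exact two-sided permutation test of this difference of differences, p = 0.657). Split by density, the differences were -8.03 percentage points at density 10 to 12, -8.05 at 13 to 15 and -7.64 at 16 to 19.

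**Figure D3:**
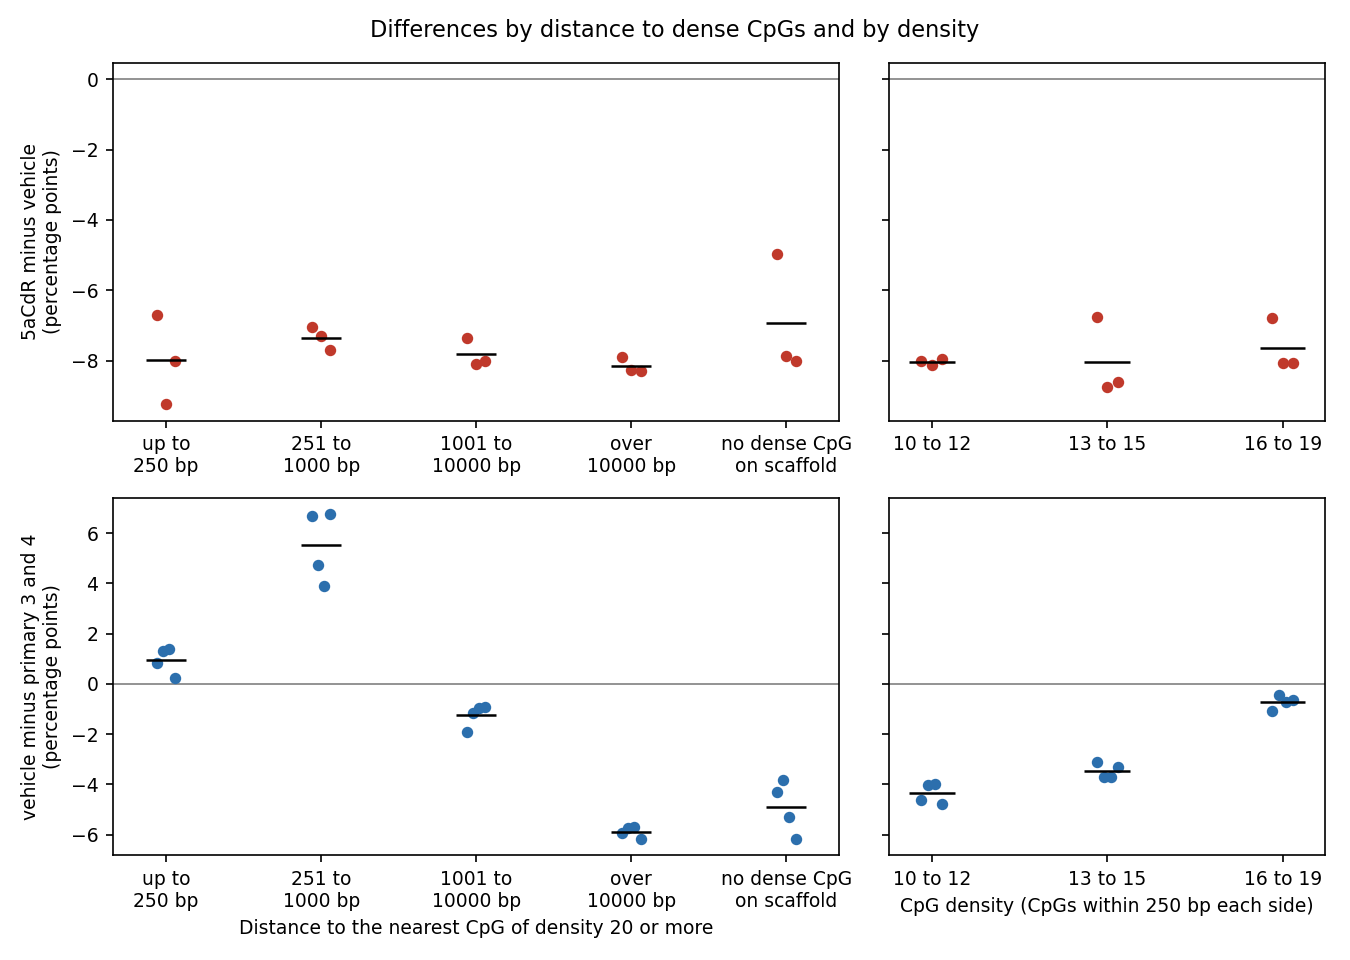
Difference in mean methylation, in percentage points, by distance to the nearest CpG of density 20 or more (left) and by CpG density (right); points are single 5aCdR wells minus the vehicle mean (top) or single vehicle wells minus the mean of primary replicates 3 and 4 (bottom), and lines are means. The 5aCdR means stay between -8.15 and -6.95 percentage points in every class, while the vehicle means run from -5.89 to 5.52.

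The 3 other sets of CpGs compared here were also lower in 5aCdR wells than in vehicle wells. The 1343 CpGs of density 20 or more at 20% or more in primary replicates 1 and 2 averaged 44.6% ± 0.715 (n = 3, SD) in 5aCdR wells and 52.6% ± 0.232 (n = 4, SD) in vehicle wells, a difference of -8.03 percentage points. The 37711 sparse methylated CpGs averaged 53.5% ± 0.268 (n = 3, SD) and 61.2% ± 0.154 (n = 4, SD), a difference of -7.64. The medium-density CpGs under 20% averaged 7.78% ± 0.235 (n = 3, SD) and 9.22% ± 0.183 (n = 4, SD), a difference of -1.44. Taken as the difference at the chosen CpGs minus that at another set, the contrast was -6.53 percentage points with medium-density CpGs under 20% and -0.329 with sparse methylated CpGs. In percentage points the fall was thus larger at the chosen CpGs in both. Each passed the exact two-sided permutation test of this difference (adjusted p = 0.0429 in both, over the 3 sets). The CpGs under 20%, at 9.22% in vehicle wells, had little room to fall in points. Their contrast therefore does not show a stronger response at the chosen CpGs. With dense methylated CpGs the contrast was 0.0636 percentage points (exact two-sided permutation test, p = 0.8286). It was 1.77 with at least 20 reads per CpG (exact permutation test, p = 0.0286), a smaller fall at the chosen CpGs, and without 1 library it ran from -0.186 without 5aCdR replicate 2 to 0.353 without 5aCdR replicate 3, also below 0 without vehicle replicate 4 (-0.0485). Within a class of primary level, the contrast with sparse CpGs was -0.404 to -0.626 percentage points and passed in none of the 3 classes (exact permutation test, adjusted p = 0.3 in each). With dense CpGs it was -1.30, 0.404 and 3.16 from the lowest class up (exact permutation test, adjusted p = 0.309, 0.571 and 0.171), the last with every 5aCdR well above every vehicle well in the gap. As a share of the vehicle level, the change was -12.9% at the chosen CpGs, -15.6% at the medium-density CpGs under 20%, -12.5% at sparse methylated CpGs and -15.3% at dense methylated CpGs. On a natural log scale of the mean level, the contrast was 0.0271 with the dense set and -0.00525 with the sparse set (exact two-sided permutation test, adjusted p = 0.0429 in both), and 0.0309 with the medium-density CpGs under 20% (exact permutation test, adjusted p = 0.114).

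**Figure D4:**
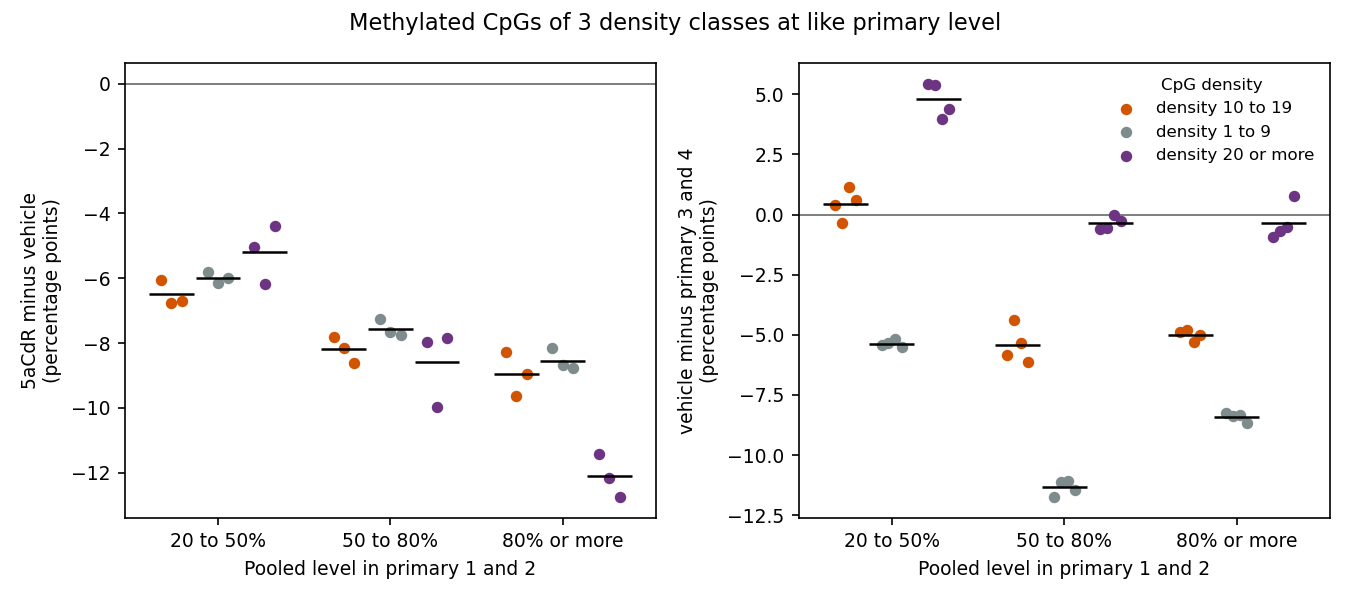
Difference in mean methylation, in percentage points, of methylated CpGs of 3 density classes within the same class of pooled level in primary replicates 1 and 2; points are 5aCdR wells minus the vehicle mean (left) or vehicle wells minus the mean of primary replicates 3 and 4 (right), and lines are means. After 5aCdR the 3 density classes are all below 0 at each level; in vehicle wells the CpGs of density 10 to 19 lie above the sparse and below the dense CpGs at each level.

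At single CpGs, 608 of the 6866 had every 5aCdR library below every vehicle library, which is 8.86%, beside 5.86% of all common CpGs. The share was 9.60% among sparse and 11.5% among dense methylated CpGs. The reverse was found at 55, which is 0.801%, beside 0.91% of all. Of the chosen CpGs 67.1% had a lower mean after 5aCdR, beside 50.9% of all common CpGs. In the quasi-binomial test over all 155920 CpGs covered in the MT2 libraries, 0.0847% passed a Benjamini-Hochberg adjusted p of 0.05, 0.084% lower and 0.000641% higher. Of the chosen CpGs 18 passed, which is 0.262%, and all 18 were lower after 5aCdR. In the same test an unadjusted p below 0.05 was found at 1042 of the 6866, beside 13675 of all 155920. Among sparse methylated CpGs it was found at 6342 of 37711. Of the sparse methylated CpGs 0.281% were called, and of the dense methylated CpGs 0.0745%. No chosen CpG was called without 5aCdR replicate 1, 2 or 3, beside 0.00513% to 0.00577% of all CpGs. The count was 8 (0.117%, beside 0.0398% of all) without vehicle replicate 1 and 11 (0.160%, beside 0.0545%) without vehicle replicate 4. limma on logit levels called 0 after adjustment, at the chosen CpGs and over all CpGs. It had 841 chosen CpGs at an unadjusted p below 0.05, beside 13071 of all 155920. The quasi-binomial test with an upper limit on coverage also called 0 chosen CpGs. An unadjusted p below 0.05 was then found at 974 of 6714, beside 13217 of all 154367.

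Pooling CpGs into tiles of 1000 bp gave more reads per unit. Of the 680 tested tiles with at least 3 of the chosen CpGs, 22 passed the quasi-binomial test over 18639 tiles, all lower after 5aCdR. This is 3.24% of these tiles, beside 0.799% of all tiles called, 0.783% lower and 0.0161% higher. Depth was high in the 22, at a median of 1393.5 summed reads per tile and library, against 287 over the 680. Their median level was 61.9% in 5aCdR wells and 83.6% in vehicle wells, and the median vehicle level of the 680 was 63.5%. The 22 differences ran from -40.4 to -2.66 percentage points, with a median of -17.3. limma on logit levels called 2 of the 680, and leaving out a library called 10 to 20 (1.47% to 2.94%, beside 0.209% to 0.638% of all tiles).

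Only 6 of the 22 tiles fell by at least 25 percentage points. These 6 are named here, with no overlap between groups as a further condition. The tile at 3219001 to 3220000 of KB708283.1 held 5 CpGs, 3 of them chosen, at a median of 220 reads. It was at 48.1%, 35.9% and 48.2% in the 5aCdR libraries, against 83.8%, 87.5%, 88.4% and 78.1% in the vehicle libraries. All 5aCdR wells were also below primary replicates 3 and 4, at 76.1% and 73.0%. The mean difference was -40.4 percentage points (quasi-binomial test, adjusted p = 0.0259).

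Next came 6181001 to 6182000 of KB708218.1, a tile that held 4 CpGs, all chosen, at a median of 492 reads. Its levels were 47.7%, 59.0% and 62.6% in the 5aCdR libraries, against 85.4%, 82.3%, 92.2% and 83.4% in the vehicle libraries, a difference of -29.4 percentage points (quasi-binomial test, adjusted p = 0.0141). On KB708140.1, the tile at 17854001 to 17855000 held 7 chosen CpGs among 8, at a median of 644 reads. It was at 38.9%, 41.8% and 34.3% in the 5aCdR libraries, against 61.2%, 65.5%, 70.7% and 64.4% in the vehicle libraries. Unlike the other 5 tiles it started at an intermediate level, and its difference was -27.1 percentage points (quasi-binomial test, adjusted p = 0.00899). The lowest adjusted p among the 6 (quasi-binomial test) was 0.00725, at the tile at 3728001 to 3729000 of KB708161.1, which averaged 67.1% ± 6.18 (n = 3, SD) in 5aCdR wells and 95.2% ± 4.39 (n = 4, SD) in vehicle wells. The remaining pair, at 1 to 1000 of APMT01232241.1 and 13871001 to 13872000 of KB708152.1, fell by 26.3 and 25.8 percentage points. Leaving out a library kept 2 to 5 of the 6 calls, with 2 without vehicle replicate 4, and limma on logit levels kept 0. The files pair no position with a gene, so what lies at these tiles was not analysed here.

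**Figure D5:**
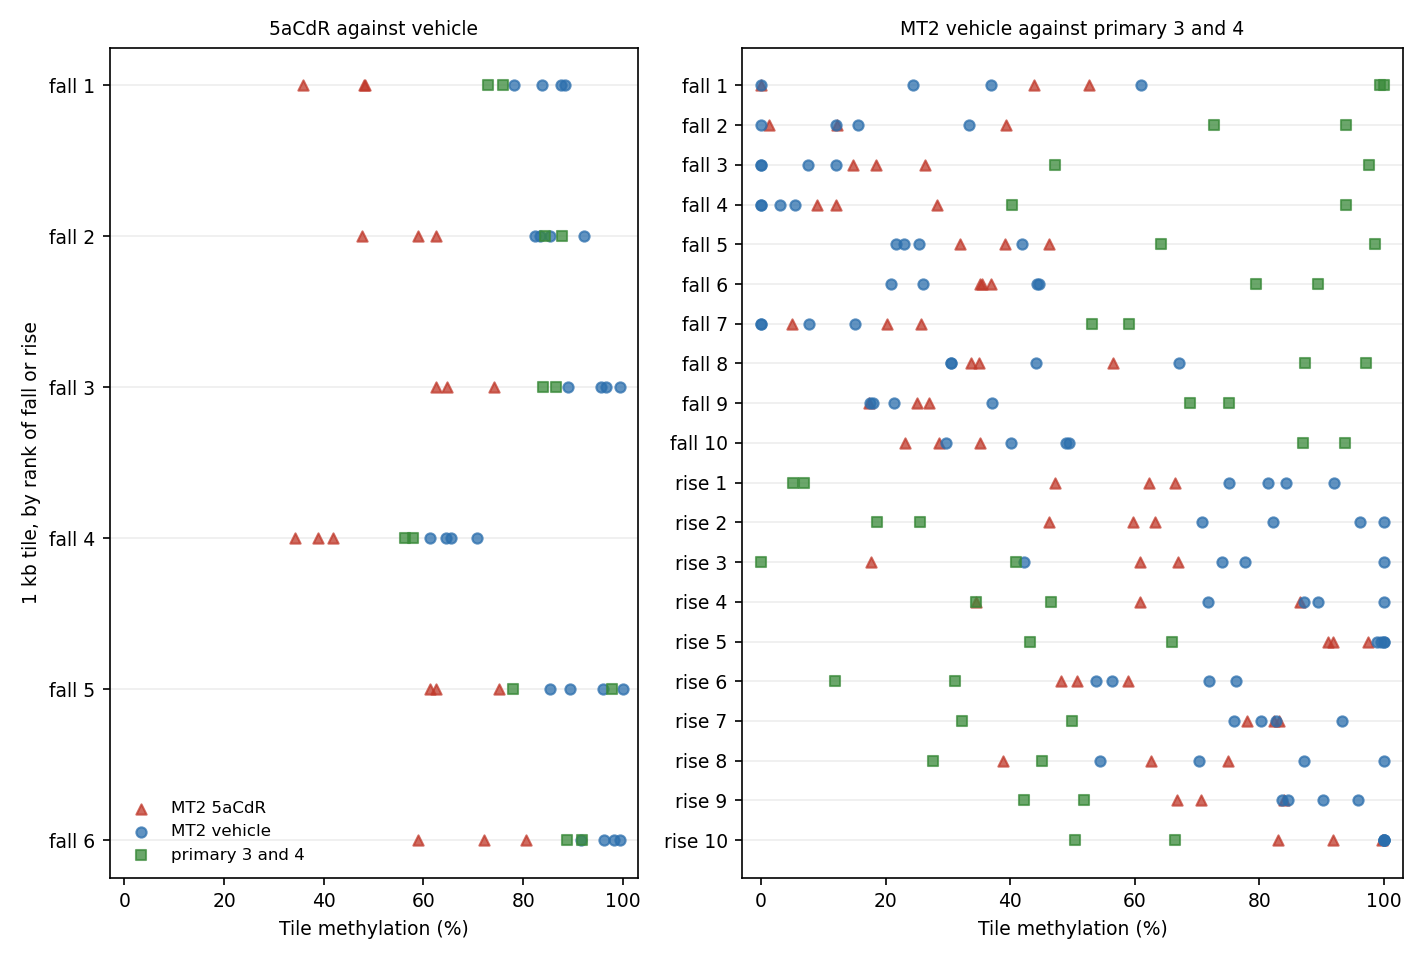
Methylation in percent of the 6 tiles that fell after 5aCdR (left) and of the 10 largest falls and 10 largest rises of MT2 vehicle against primary replicates 3 and 4 (right), ordered from the largest difference; each mark is a library (triangles 5aCdR, circles vehicle, squares primary). Tiles were named only where the compared groups did not overlap. The separation of the groups in every tile, left and right, follows from that choice.

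The second comparison was between MT2 cells in vehicle and primary cells. On average the chosen CpGs were somewhat less methylated in MT2, with changes in both directions at single CpGs and regions. The mean level was 61.4%, 61.7%, 61.7% and 61.4% in the vehicle libraries, against 64.7% and 65.3% in primary replicates 3 and 4. All 4 vehicle libraries lay below both primary libraries. The difference was -3.48 percentage points, a relative change of -5.35%, with an exact two-sided permutation p = 0.0667, the smallest that 15 splits allow, so this design cannot reach 0.05. Over pooled reads it was -5.82 percentage points, and at the 568 CpGs with at least 50 reads it was -6.53. Mitochondrial CpGs differed by -1.64 percentage points in the same comparison. Primary replicates 1 and 2, which chose the CpGs, were at 68.1% and 67.4%, above replicates 3 and 4. Set side by side, the 5aCdR libraries differed from primary replicates 3 and 4 by -11.4 percentage points, a relative change of -17.6% (exact two-sided permutation test, p = 0.1, the smallest of 10 splits); it shares libraries with both other comparisons.

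The share of the chosen CpGs at 80% or more was 43.5% ± 3.35 (n = 4, SD) in vehicle wells and 42.5% ± 0.947 (n = 2, SD) in primary replicates 3 and 4 (exact two-sided permutation test, p = 0.8). The share below 20% was 20.7% ± 2.65 (n = 4, SD) in vehicle wells and 13.3% ± 2.17 (n = 2, SD) in primary cells, without overlap (exact two-sided permutation test, p = 0.0667, the smallest possible). By mean level, of the CpGs at 80% or more in primary replicates 3 and 4, 63.2% were also at 80% or more in vehicle wells, 33.3% were between 20 and 80%, and 3.50% were below 20%. Of those between 20 and 80% in primary cells, 23.0% were at 80% or more in vehicle wells and 16.4% were below 20%. Of the 653 below 20% in primary cells, 50.2% were between 20 and 80% in vehicle wells and 8.27% at 80% or more. Here too the classes were set by a compared group, so imprecise single levels alone can move CpGs out of them. In single libraries, 1904 CpGs were at 80% or more in both primary replicates 3 and 4, and 18 of these were below 20% in every vehicle library. In the other direction, 381 were below 20% in both, and 7 of these were at 80% or more in every vehicle library. Every MT2 library, 5aCdR included, was below 20% at 314 CpGs.

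The difference between vehicle and primary cells varied with the surroundings of the CpG, in a design that cannot reach 0.05. Within 250 bp of a CpG of density 20 or more, 863 of the chosen CpGs averaged 57.3% ± 0.532 (n = 4, SD) in vehicle wells and 56.3% ± 1.01 (n = 2, SD) in primary replicates 3 and 4. These libraries overlapped (exact two-sided permutation test, p = 0.2), and the difference of 0.949 percentage points was 0.238 without primary replicate 4 and 1.66 without primary replicate 3. Between 250 and 1000 bp, 323 CpGs were at 59.2%, 57.3%, 56.5% and 59.3% in vehicle wells, against 52.6% and 52.5% in primary cells, so vehicle was higher by 5.52 percentage points. With at least 20 reads per CpG, 95 CpGs of this class remained and the difference was 1.40. Between 1000 and 10000 bp the 1428 CpGs differed by -1.248 percentage points. Over 10000 bp, the 3922 CpGs were at 61.8%, 62.0%, 62.0% and 61.6% in vehicle wells, against 67.2% and 68.3% in primary cells, a difference of -5.89. The 330 CpGs on scaffolds without a dense CpG differed by -4.91.

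Joined into 2 classes, the 1186 CpGs within 1000 bp of a dense CpG averaged 57.5% ± 0.186 (n = 4, SD) in vehicle wells and 55.3% ± 0.755 (n = 2, SD) in primary cells, so vehicle was higher by 2.19 percentage points. The 5680 farther CpGs averaged 62.4% ± 0.208 (n = 4, SD) and 67.0% ± 0.664 (n = 2, SD), a difference of -4.66. The 2 differences stood 6.86 percentage points apart, with every vehicle library on 1 side of both primary libraries (exact two-sided permutation test of this difference of differences, p = 0.0667, the smallest possible). Within the primary level classes they stood 6.37 apart at 20 to 50%, 7.24 at 50 to 80% and 5.17 at 80% or more. Density ran the same way, with differences of -4.36 percentage points at density 10 to 12, -3.46 at 13 to 15 and -0.721 at 16 to 19. The level classes themselves differed by -5.00 percentage points at 80% or more, -5.43 at 50 to 80% and 0.451 at 20 to 50%; the last had overlapping libraries (exact two-sided permutation test, p = 0.4), was -1.45 with at least 20 reads per CpG, and ran from 0.000888 to 0.901 without 1 library.

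In this comparison the chosen CpGs lay between the sparse and the dense methylated CpGs. Sparse methylated CpGs averaged 61.2% ± 0.154 (n = 4, SD) in vehicle wells and 69.8% ± 0.0818 (n = 2, SD) in primary replicates 3 and 4, a difference of -8.67 percentage points. Dense methylated CpGs averaged 52.6% ± 0.232 (n = 4, SD) and 50.6% ± 0.728 (n = 2, SD), a difference of 1.99, and medium-density CpGs under 20% averaged 9.22% ± 0.183 (n = 4, SD) and 5.19% ± 0.511 (n = 2, SD), a difference of 4.03. The contrast of the chosen CpGs was 5.19 percentage points with sparse methylated CpGs, -5.47 with dense methylated CpGs and -7.51 with medium-density CpGs under 20%. The CpGs under 20% were chosen for a low level and had little room to fall, which limits what their contrast can show. In each of the 3 contrasts every vehicle library lay on 1 side of both primary libraries (exact two-sided permutation test, adjusted p = 0.0667, the smallest possible). The order also held within each primary level class, where the contrast was 3.41 to 5.92 percentage points with the sparse CpGs and -5.06 to -4.35 with the dense CpGs. It can be followed at the edges of the density range, at 20% or more in primary replicates 1 and 2. The difference was -5.09 percentage points at the 2088 CpGs of density 9, just outside, and -5.06 at the 1580 of density 10, just inside. It was 0.227 at the 221 of density 19, just inside, and 5.86 at the 175 of density 20, just outside.

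At the edge of the level threshold, the 355 medium-density CpGs at 20 to 25% in primary replicates 1 and 2 averaged 28.5% after 5aCdR, 33.4% in vehicle wells and 28.4% in primary replicates 3 and 4. The 377 just outside, at 15 to 20%, averaged 20.9%, 25.4% and 20.9% in the same groups. On both sides vehicle wells were thus above primary replicates 3 and 4 and 5aCdR wells close to them.

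At single CpGs, 864 of the chosen CpGs (12.6%) had every vehicle library below both primary replicates 3 and 4, beside 11.5% of all common CpGs. The reverse was found at 597 (8.70%), beside 6.24%. Among sparse methylated CpGs these shares were 19.5% and 7.80%, and among dense methylated CpGs 7.74% and 9.31%. The vehicle mean was at least 25 percentage points below the primary mean at 1398 of the chosen CpGs (20.4%). It was as far above at 945 (13.8%). Over all common CpGs these shares were 15.8% and 9.62%. Among sparse methylated CpGs they were 27.05% and 10.997%, and among dense methylated CpGs 12.2% and 15.3%. The median difference at the chosen CpGs was -0.779. In the quasi-binomial test over 147189 CpGs, 130 of the chosen CpGs were called lower and 92 higher in MT2, together 3.23%, beside 2.51% of all. For lower calls alone 1.58% of all CpGs were called, and for higher calls 0.928%. In this test 1 dispersion was shared by the 4 vehicle wells and the 2 primary libraries. Its p-values rest largely on wells of 1 line and do not measure the spread between fetuses. With 1 vehicle library left out 7 to 19 were called, the fewest without vehicle replicate 1, while 258 were called without primary replicate 3 and 236 without primary replicate 4. In the last 2 fits, which leave 1 primary library, the balance of directions turned towards higher calls, at the chosen CpGs and over all CpGs alike. With a vehicle library left out, 0.102% to 0.277% of the chosen CpGs were called, beside 0.0251% to 0.114% of all. The drop was thus not particular to the chosen CpGs. With an upper limit on coverage, 78 of the chosen CpGs were called lower and 80 higher. Over all CpGs 59.7% of calls were then lower, beside 63.0% without the limit. Of the sparse methylated CpGs 1461 were called lower and 521 higher, together 5.26%, and of the dense methylated CpGs 9 and 10, together 1.41%.

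Of the 680 tiles, 87 were called lower (12.8%, beside 7.17% of all tiles) and 37 higher (5.44%, beside 4.55%) in vehicle wells by the quasi-binomial test over 17412 tiles. The dispersion was again shared by vehicle wells and fetuses, so p-values of tiles do not measure the spread between fetuses either. Libraries did not overlap in 85 of the 87 and 36 of the 37. The median level of lower tiles was 43.6% in vehicle wells and 74.3% in primary cells, and that of higher tiles was 88.5% and 49.6%. Together the 124 calls dropped without primary replicate 3 or 4, and so did the calls over all tiles. Either fit leaves a lone primary library assumed to vary like the vehicle wells. limma on logit levels called 65 of the 680.

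Among the 10 largest falls the differences were -69.1 to -48.3 percentage points. On KB708217.1 the tile at 3413001 to 3414000, with 4 chosen CpGs and a median of 195 reads, was at 33.4%, 12.04%, 0% and 15.6% in vehicle wells, against 94.0% and 72.7% in primary replicates 3 and 4. The 5aCdR wells were at 12.2%, 1.29% and 39.3%, within the spread of the vehicle wells or near it. Its difference between vehicle and primary cells was -68.1 percentage points (quasi-binomial test, adjusted p = 0.00922).

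At 9061001 to 9062000 of KB708216.1 the tile held 3 chosen CpGs and a median of 218.5 reads. It was at 48.9%, 40.2%, 29.8% and 49.4% in vehicle wells, against 87.1% and 93.7% in primary replicates 3 and 4, a difference of -48.3 percentage points (quasi-binomial test, adjusted p = 0.00479). On KB708209.1, the tile at 1560001 to 1561000 was at 26.1%, 44.6%, 44.3% and 20.9% in vehicle wells, against 79.5% and 89.4% in primary cells. At some falls the 2 fetuses differed widely. At 3075001 to 3076000 of KB708218.1 the vehicle wells were at 0% to 5.52%, against 40.3% in primary replicate 3 and 93.9% in primary replicate 4, and primary replicates 1 and 2 were at 25.4% and 84.4%. Likewise, at 8485001 to 8486000 of KB708147.1 they were at 0% to 12.1%, against 47.2% and 97.6% in primary replicates 3 and 4. Of the 10 calls, 2 were kept without primary replicate 3 and 0 without primary replicate 4, and limma on logit levels kept all 10.

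Among the 10 largest rises the differences were 41.5 to 77.1 percentage points. The largest was at 293001 to 294000 of KB708308.1, with 8 CpGs at density 16 to 19, 3 of them chosen, and a median of 357 reads. It was at 84.3%, 81.3%, 92.0% and 75.1% in vehicle wells, against 5.14% and 6.98% in primary replicates 3 and 4. Primary replicates 1 and 2, which chose its CpGs, were at 34.3% and 17.8% over the tile. Its adjusted p in the quasi-binomial test was 5.21e-05, the smallest of the 20 tiles, and the 5aCdR wells were at 47.2%, 62.3% and 66.4%, below every vehicle well.

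At 24873001 to 24874000 of KB708136.1 a tile with 4 chosen CpGs at density 17 to 19 was at 98.9%, 100%, 100% and 99.6% in vehicle wells, against 65.9% and 43.2% in primary replicates 3 and 4 (quasi-binomial test, adjusted p = 0.000452). The 5aCdR wells were lower than all of these vehicle values, at 97.5%, 91.1% and 91.8%. At 1 to 1000 of APMT01219077.1, 3 chosen CpGs were fully methylated in all 4 vehicle wells, against 50.5% and 66.6% in primary replicates 3 and 4, and at 82.9%, 91.9% and 99.7% after 5aCdR. At 11763001 to 11764000 of KB708129.1, 4 chosen CpGs at density 10 were at 82.2%, 96.1%, 100% and 70.9% in vehicle wells, against 18.6% and 25.6% in primary cells. Of the 10 calls, 3 were kept without primary replicate 3 and 3 without primary replicate 4, and limma on logit levels kept 7.

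To set the response to 5aCdR beside the change in MT2, the chosen CpGs were classed by vehicle replicates 1 and 2 against primary replicates 1 and 2 and measured in the other libraries. The 1704 CpGs at least 25 percentage points lower in MT2 were at 34.1% ± 0.0517 (n = 3, SD) after 5aCdR, at 38.5% and 39.0% in vehicle replicates 3 and 4, and at 60.6% and 60.3% in primary replicates 3 and 4. The 4205 within 25 percentage points were at 58.6% ± 0.419 (n = 3, SD), at 67.4% and 67.0%, and at 67.4% and 68.3% in the same groups. The 957 at least 25 percentage points higher were at 66.3% ± 1.44 (n = 3, SD), at 77.8% and 76.2%, and at 60.3% and 61.3%. The relative changes with 5aCdR were -11.95%, -12.9% and -13.9% in these 3 classes, each without overlap (exact two-sided permutation test, p = 0.1, the smallest possible with 3 against 2). In the class that was higher in MT2, the 5aCdR wells remained 5.51 percentage points above primary replicates 3 and 4, and in the class that was lower they differed from them by -26.3.

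The differences were spread over many scaffolds. On the 37 scaffolds with at least 50 of the chosen CpGs, which hold 3640 of them, the 5aCdR mean was below the vehicle mean on 37, without overlap on 31. Vehicle wells were below primary replicates 3 and 4 on 30 of the 37, without overlap on 19, and above on 7, without overlap on 2. Counts by scaffold were made for the chosen CpGs only. Over all common CpGs the 2 differences were also negative, at -4.93 and -3.08 percentage points. The most negative difference was on KB708244.1, with 168 CpGs, where the levels were 50.4% after 5aCdR, 56.5% in vehicle wells and 69.3% in primary replicates 3 and 4. On KB708304.1, with 79 CpGs, they were 62.4%, 72.0% and 66.0%. KB708147.1 holds 393 of the chosen CpGs, and there vehicle wells differed from primary replicates 3 and 4 by -0.221 percentage points and 5aCdR wells from vehicle wells by -7.48.

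Neighbouring CpGs had like values over short distances. Among 2145 pairs of neighbours 1 to 50 bp apart, Pearson's r was 0.351 for the difference between 5aCdR and vehicle, 0.430 for the difference between vehicle and primary replicates 3 and 4, and 0.515 for the level in primary replicates 3 and 4. Among 839 pairs 51 to 250 bp apart, r was -0.104, 0.156 and 0.252 for the same 3 measures. These values describe CpGs of the same libraries, and near neighbours can share the same reads and molecules.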

How the data were processed

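Per the labels' protocols, a commercial kit was used for the reduced representation bisulfite libraries. Per the submitters' processing notes, the tools were methylKit 1.10.0 in R 3.6.1, Bowtie2 and Bismark 0.22.1, Trim Galore 0.5.0 and bcl2fastq 2.20.0.42. The deposited files give coverage as a read count for each strand of a CpG, with C as a percent of it, per the file headers. They list no position under 10 reads. The genome build and any removal of PCR duplicates are not given in the sources used here. Positions are 1-based as in the files.

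The methylated count was the product of coverage and percent C, rounded, and both strands of a CpG were summed. A strand under 10 reads is missing from the sum. A library's level is the mean over CpGs, each with equal weight. Between groups an exact two-sided permutation test over libraries was used, and sets of CpGs by the same test of their gap per library. Single CpGs and 1000 bp tiles (non-overlapping, 3 CpGs or more) were fitted over the whole table with a quasi-binomial logistic model. Its dispersion, 1 value per unit shared by both groups, was moderated by limma with a floor of 1. The p-values from its F test were adjusted by Benjamini-Hochberg over all units, with a call at 0.05. limma on logit levels was an alternative. Read counts can overstate molecules, so no interval from reads is given.

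The tiles named are those with at least 3 of the chosen CpGs, a call, a difference of 25 percentage points or more and separate groups, up to 10 in each direction. The CpGs, sets and tests were chosen with earlier results of these data known. The classes by change in MT2, read discordance, the minimum of 50 reads, the split at 1000 bp from a dense CpG, also within levels, and the analysis without scaffold KB708147.1 were added after these files were seen. The tests were also run on simulated reads at the depths of these libraries. Simulated libraries of a group differed only by the sampling of molecules. The simulation therefore does not show how the tests behave where fetuses differ. Versions were limma 3.58.1 under R 4.3.3, and numpy 2.4.6, scipy 1.17.1 and pandas 2.3.3 under Python 3.11.15.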

Additional observations from a re-analysis of the deposited data

How the results depend on the processing

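The mean differences of the 6866 CpGs kept their direction in every alternative run. Those of 5aCdR against vehicle were -8.58 to -6.67 percentage points with 20 or 50 reads, pooled reads, an upper limit on coverage, forward reads, a level of 30%, the primary replicates exchanged, or no KB708147.1. Fits with the replicate number as a block gave -8.03 for 5aCdR with p = 0.25, the smallest an exact permutation within pairs can give. For vehicle against primary cells they gave -3.51. Same-numbered libraries did not deviate together (correlations of -0.0276 to 0.00712). Deviations of single CpGs are noisy, and those of the 2 primary libraries mirror each other. These correlations therefore could not show whether the numbers pair libraries. For 5aCdR the block called 5 CpGs (0.0728%, beside 0.0135% of all) and 12 tiles (1.76%, beside 0.349%). For vehicle against primary cells it called 0 CpGs (1273 at an unadjusted p below 0.05, beside 21472 of all 147189) and 51 tiles (7.5%, beside 4.35%). In the 5aCdR comparison, limma on logit levels called 0 CpGs and 2 tiles (0.294%, beside 0.161% of all tiles). The coverage limit called 0 CpGs and 10 tiles (1.52%, beside 0.423%), and a minimum of 20 reads 29 of 3323 CpGs (0.873%, beside 0.467% of all). In vehicle against primary cells, limma called 65 tiles (9.56%, beside 8.27% of all). A minimum of 20 reads called 74 of 275 tiles (26.9%, beside 19.7% of all), while the main fit called 18.2% of 680 and 11.7% of all. With 5 CpGs per tile, 77 of 347 tiles were called (22.2%, beside 8.40%). With 20 reads the contrast with dense methylated CpGs for 5aCdR was 1.77 percentage points (exact permutation test, p = 0.0286), and the 20 to 50% class of vehicle against primary cells turned to -1.45; the causes were not tested. Leaving out a library made it impossible for 5aCdR differences to reach 0.05 (smallest p 0.0667 or 0.1). For 5aCdR the mean was then -8.22 to -7.80, and the contrasts were -6.68 to -6.42 with medium-density CpGs under 20%, -0.433 to -0.235 with sparse and -0.186 to 0.353 with dense methylated CpGs, below 0 without 5aCdR replicate 2 (-0.186) or vehicle replicate 4 (-0.0485). By level it was -6.76 to -6.27, -8.43 to -7.85 and -9.29 to -8.60 from the lowest class up, and by distance -8.63 to -7.37, -7.89 to -6.94, -8.06 to -7.68, -8.28 to -8.08 and, with no dense CpG on the scaffold, -7.94 to -6.41. For vehicle against primary cells, the differences by level were 0.000888 to 0.901, -5.77 to -5.11 and -5.15 to -4.84, and by distance 0.238 to 1.66, 5.10 to 6.05, -1.47 to -1.02, -6.44 to -5.33 and -5.37 to -4.45. The calls ranged over 0 to 18 CpGs and 10 to 20 tiles for 5aCdR, and over 7 to 258 CpGs and 16 to 116 tiles for vehicle against primary cells.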
